A study of Mus musculus with 47 samples.

Results

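The question addressed here was which transcripts differed in the brainstem of wildtype mice after a high-fat diet (HFD) compared with a standard diet (SD). The comparison was chosen by sample label and took 11 of the 47 RNA-seq libraries of the series, 6 from WT_HFD and 5 from WT_SD mice, and every gene whose count averaged 50 or more in brainstem, which left 13340 of the 33139 genes in the table. All mice were male C57BL/6 animals that received their diet from 5 weeks to 12 months of age. WT mice lacked the transgene and came from a colony kept in parallel to the transgenic (TG) line, which carries a human transgene under the neuronal Thy1 promoter and whose 12 brainstem libraries (6 TG_SD, 6 TG_HFD) entered the same statistical model. The tissue was the medulla (oblongata and spinalis), 1 mouse per library, and 1 further WT_SD brainstem sample of the study was left out by its authors for poor RNA integrity.

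The medulla holds the nucleus of the solitary tract and the dorsal motor nucleus of the vagus, which receive gut signals of satiety and send parasympathetic output back to the viscera, as well as the serotonergic raphe nuclei and the noradrenergic cell groups of the ventrolateral medulla. A fat-rich diet can raise circulating fatty acids and ketone bodies, which can reach the brain, and in liver it engages PPAR-alpha, the nuclear receptor that switches on fatty acid oxidation and ketogenesis. The brain makes its own cholesterol behind the blood-brain barrier and is for the most part shielded from dietary cholesterol.

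The 11 WT libraries held between 10020784 and 14681252 counted reads, and the difference in total count between diets was within the spread of the libraries (exact permutation test, two-sided, p = 0.693). The tissue label was checked with *Slc6a5*, the glycine transporter of hindbrain inhibitory neurons, which had an RPKM (reads scaled to transcript length and library size) of 53.2 on average over the WT libraries, and with the hindbrain Hox gene *Hoxa5*, which had a mean RPKM of 12.3. Markers of neighbouring tissue varied between libraries of a group. *Ttr*, the transthyretin transcript of the choroid plexus, had normalised read counts (counts scaled to the mean effective library size) of 18859, 313, 194, 17564 and 530 in WT_SD and from 287 through a median of 5732 to 34714 in WT_HFD. Choroid plexus genes led the first principal component of the 500 most variable transcripts, which took up 33.4% of the variance and did not separate the diets (exact permutation test, p = 0.797). The second component (17.4% of the variance) rested on *Hoxb8*, *Hoxb6* and *5730419F03Rik* at one end and on cerebellar granule cell genes at the other, and its scores differed between diets by -6.94 (exact permutation test, two-sided, p = 0.0368).

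**Figure D1:**
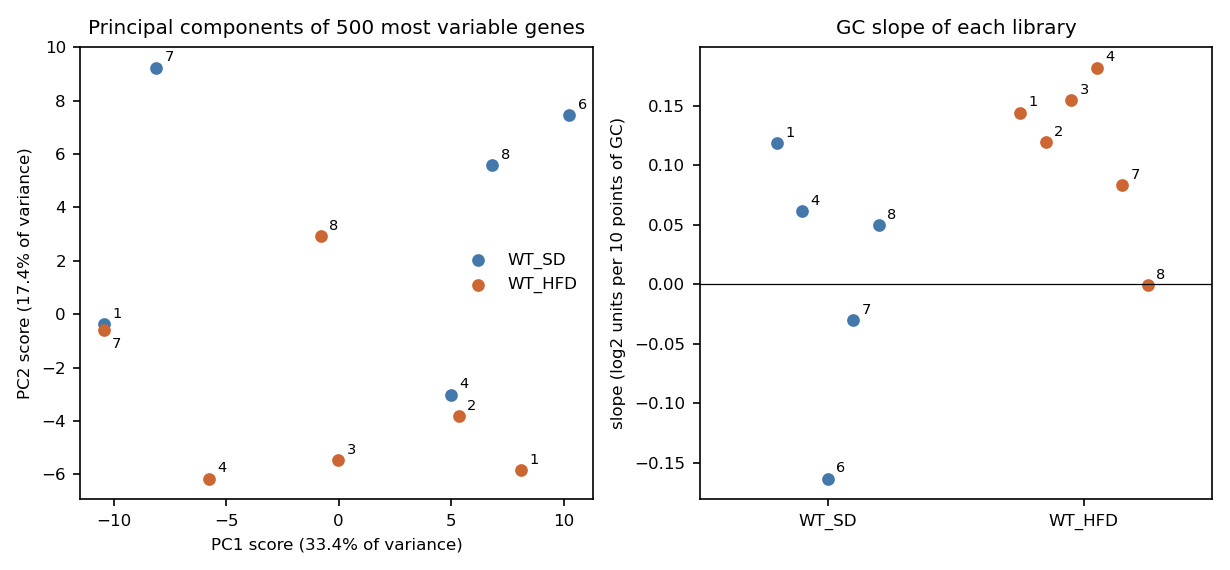
Left, scores of the 11 WT brainstem libraries on the first and second principal components of log2 CPM (blue, WT_SD; orange, WT_HFD; numbers are replicate labels). Right, how steeply a library departed from the average one with rising GC content of the genes. WT_SD replicates 6, 7 and 8 hold the highest second-component scores, and 5 of the 6 WT_HFD slopes lie above 0.08.

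Diet left no gene past the study's thresholds in WT brainstem. With edgeR's quasi-likelihood test, 4 surrogate variables and Benjamini-Hochberg adjustment, 0 of 13340 genes (0%) had an adjusted p not above 0.05 and a log2 fold change of 0.3 or more in size. An unadjusted p not above 0.05, called the nominal level below, was reached by 724 genes in the same fit (5.43% of those tested), of which 284 (2.13%) were higher and 440 (3.3%) lower in WT_HFD. Over all tested genes 46.1% had a log2 fold change above 0. Without surrogate variables 880 genes (6.6%) were at that level, 442 (3.31%) higher and 438 (3.28%) lower, and again none was called. DESeq2 called 0 genes without surrogate variables, with 918 at the nominal level. With them it called 1, *5730419F03Rik*, whose counts are given below. In the edgeR fit with 4 surrogate variables the median standard error of the log2 fold change was 0.0734. A value after ± below is a gene's standard error in that fit, derived from its test statistic, and is not an SD between mice. Of the 13329 genes with a computable 95% interval in that fit, 74.1% had it entirely within 0.3 of 0 and 99.6% within 1 of 0. The intervals hold for that model and do not include the choice of model. Over all 13340 genes the log2 fold changes with and without surrogate variables had a Spearman correlation of 0.55.

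The groups were also compared without a model. Normalised read counts of the WT_HFD libraries lay wholly above those of the WT_SD libraries for 33 genes (0.247% of all tested) and wholly below for 24 (0.18%). These 57 genes (0.427%) had a median absolute log2 fold change of 0.14, and 8 of them reached 0.3. For a gene unrelated to diet, complete separation in either direction has a probability of 0.00433 over the 462 possible divisions of these libraries. The observed share was no larger than this, so the count of 57 does not exceed what chance alone gives.

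**Figure D2:**
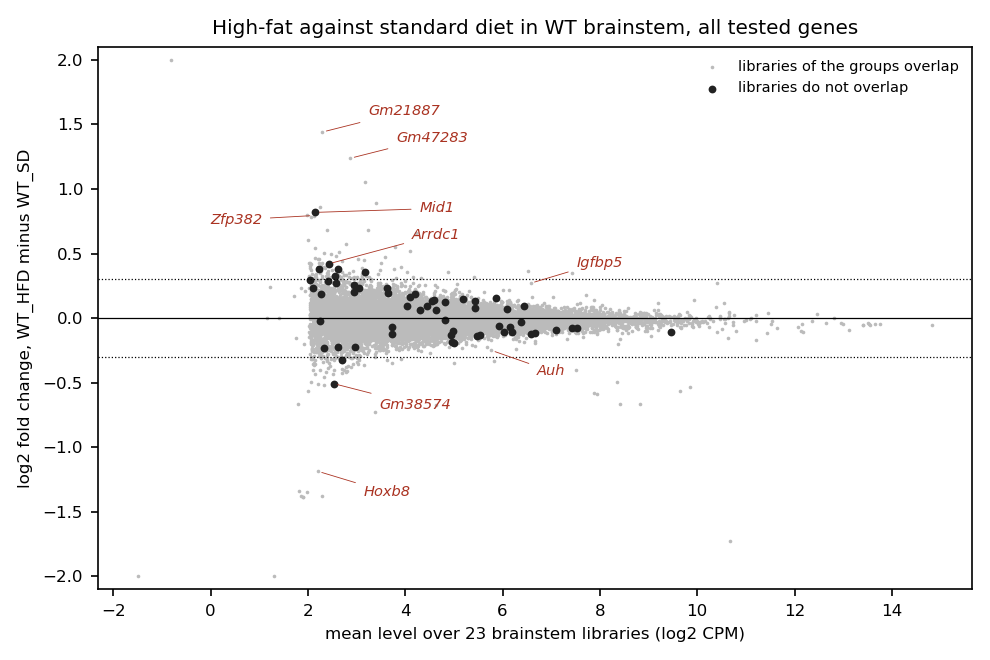
Log2 fold change of each tested gene (WT_HFD minus WT_SD, model with 4 surrogate variables) against its mean level in log2 CPM over the 23 brainstem libraries, with dotted lines at -0.3 and 0.3. Black points are the 57 genes whose WT_HFD and WT_SD libraries do not overlap, most of them within the dotted lines; 3 genes beyond 2 are drawn at the edge.

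Each list count below is to be read beside the shares over all tested genes. With surrogate variables 2.13% were higher and 3.3% lower at the nominal level, and 46.1% were above 0. Without them these shares were 3.31%, 3.28% and 47.3%. Of 34 tested genes of fatty acid oxidation and PPAR targets 1 was higher and 1 lower at the nominal level, and the list median was -0.00065 on the log2 scale, beside -0.0068 for all tested genes. The lower one was *Ucp2*, the mitochondrial uncoupling protein of fuel switching, which differed by -0.15 with surrogate variables (from -0.21 to -0.07 with 1 library left out, the latter without WT_SD replicate 6) and by -0.0018 without them. Log2 fold changes of the 34 genes ran from -0.29 to 0.86 with surrogate variables. Without them 2 genes of this list were higher and 0 lower at the nominal level, and 21 were above 0. Among 6 genes of ketone body use, *Slc16a1*, the monocarboxylate transporter that carries ketone bodies and lactate across the endothelium, was the one at that level (log2 fold change 0.10 ± 0.05, unadjusted p = 0.045), and without surrogate variables it stood at 0.07 (unadjusted p = 0.25). *Oxct1*, which activates acetoacetate in the mitochondria of ketone-using cells, ranged from 3473 to 4211 in WT_SD and from 3451 to 3772 in WT_HFD, a difference of -0.01 on the log2 scale with a 95% interval from -0.08 to 0.07.

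In the cholesterol synthesis and uptake list 1 of 25 tested genes was at the nominal level, and the list median was -0.03. That gene was *Lss*, lanosterol synthase, which closes the sterol ring, with normalised read counts of 601, 524, 498, 478 and 485 in WT_SD and 409, 448 and 554 as lowest, median and highest in WT_HFD. Its log2 fold change was -0.20 ± 0.07 (unadjusted p = 0.00992, edgeR adjusted p = 0.896), and WT_HFD replicate 7 held the 554 that overlapped the WT_SD libraries. *Hmgcs1*, the cytosolic synthase at the head of the mevalonate pathway and the most abundant transcript of the list, differed by -0.03 with a 95% interval from -0.12 to 0.07. Among 17 genes of cholesterol transport and turnover 2 were higher and 0 lower at that level, and *Cyp46a1*, the neuronal cholesterol 24-hydroxylase through which the brain exports sterol, was 1 of them with 0.12 ± 0.06. In the list of fatty acid synthesis and desaturation 0 of 22 genes were higher and 1 lower. It was *Me1*, the cytosolic malic enzyme that supplies NADPH for lipogenesis, at -0.09 ± 0.04 (unadjusted p = 0.0328), with 1366 to 1623 in WT_SD and 1285 to 1402 in WT_HFD. *Scd2*, the main stearoyl-CoA desaturase of brain, differed by -0.05 ± 0.03.

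Of 30 genes of insulin, IGF and leptin signalling 1 was higher and 3 were lower at the nominal level, with a list median of -0.01. Over all tested genes these shares were 2.13% and 3.3%. *Igfbp5*, an IGF binding protein, was the higher one, with normalised read counts of 1380, 1198, 652, 1152 and 1046 in WT_SD and a lowest, median and highest of 1155, 1285 and 1456 in WT_HFD (log2 fold change 0.27 ± 0.09, unadjusted p = 0.00477). The groups overlapped, and WT_SD replicate 6 was the library at 652. The lower ones were *Pik3r1*, the regulatory subunit of PI3 kinase, at -0.11 ± 0.04, *Adipor1*, an adiponectin receptor, at -0.11 ± 0.04, and *Grb14*, an adaptor that dampens the insulin receptor, at -0.14 ± 0.05. Without surrogate variables *Adipor1* stood at -0.03 (unadjusted p = 0.60) and the list had 1 gene higher and 1 lower. The hindbrain satiety and feeding circuit had 27 tested genes, of which 0 were higher and 1 was lower at that level. *Glp1r*, the receptor of the satiety peptide GLP-1, had normalised read counts of 119, 70.2, 70.5, 96.5 and 115 in WT_SD and 101 to 121 in WT_HFD, a log2 fold change of 0.27 ± 0.14 (unadjusted p = 0.058). *Ramp1*, a partner subunit of calcitonin-family receptors, was the lower gene at -0.13 ± 0.05, but it stood at 0.05 without surrogate variables. Glucocorticoid receptors and targets had 19 tested genes with a median of -0.10, 0 higher and 2 lower, 1 of them *Ddit4*, a stress-induced inhibitor of mTOR, at -0.21 ± 0.09 (unadjusted p = 0.0214). Without surrogate variables *Ddit4* stood at -0.09 (unadjusted p = 0.418), and without WT_HFD replicate 8 at -0.13. Of 19 genes of the circadian clock 0 were at the nominal level in either direction.

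The lowest p-values over all genes belonged to transcripts of other kinds. *Mid1*, an X-linked ubiquitin ligase gene that straddles the pseudoautosomal boundary in C57BL/6 mice, had normalised read counts of 45.7, 32.0, 51.7, 38.4 and 39.5 in WT_SD and 54.2, 78.1 and 92.2 as lowest, median and highest in WT_HFD. All 6 WT_HFD libraries lay above all 5 WT_SD libraries, and the log2 fold change was 0.82 ± 0.17 (unadjusted p = 6.47e-05, edgeR adjusted p = 0.173). *Gm21887* and *Gm47283*, which the annotation assigns to chromosomes X and Y, were higher as well. *Gm21887* had 28.4, 21.7, 131, 29.0 and 24.6 in WT_SD and 42.0, 77.5 and 172 as lowest, median and highest in WT_HFD, with a log2 fold change of 1.44 ± 0.27 (unadjusted p = 9.1e-06, edgeR adjusted p = 0.0607). *Gm47283* had 66.7, 34.1, 177, 36.7 and 47.4 in WT_SD and 56.3, 125 and 283 in WT_HFD, with 1.24 ± 0.26 (edgeR adjusted p = 0.173). The same 4 libraries held the 4 highest values of both genes, namely WT_SD replicate 6 and WT_HFD replicates 1, 2 and 8.

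These 3 genes were chosen after their values were seen, and the counting may have divided reads among near-identical sequence copies in this region, so each count is uncertain. Without surrogate variables the log2 fold changes were 0.94 for *Gm21887* (unadjusted p = 0.0492), 0.95 for *Gm47283* (unadjusted p = 0.0441) and 0.83 for *Mid1* (unadjusted p = 0.000435). The edgeR adjusted p was 0.7135 for each in that fit. With the GC correction in place of surrogate variables the log2 fold changes of *Gm21887* and *Gm47283* were 0.52 and 0.53, and that of *Mid1* was 0.77. Hippocampal libraries of WT mice, some of which may come from the same animals, showed the same direction, with log2 fold changes of 1.25 for *Gm21887* (unadjusted p = 0.000133), 0.99 for *Gm47283* (unadjusted p = 0.000678) and 0.34 for *Mid1* (unadjusted p = 0.0275). *Gm21887* ranged there from 13.2 to 58.6 in WT_SD and from 47.1 to 131 in WT_HFD. In TG brainstem the corresponding diet differences were 0.0014, -0.14 and 0.06, and the WT effect minus the TG effect was 1.44 for *Gm21887* (unadjusted p = 0.000524) without passing the adjustment over all genes.

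*Zfp382*, a KRAB zinc finger repressor gene, had normalised read counts of 40.8, 37.2, 30.3, 35.9 and 35.1 in WT_SD and 34.2, 45.2 and 81.6 as lowest, median and highest in WT_HFD. WT_HFD replicates 7 and 8 (65.5 and 81.6) stood above the rest. The log2 fold change was 0.79 ± 0.17 in WT (unadjusted p = 5.68e-05, edgeR adjusted p = 0.173) and -0.56 in TG brainstem, and it was the 1 gene of 13340 (0.0075%) whose diet effect differed between genotypes past both thresholds, by 1.36 on the log2 scale (edgeR adjusted p = 0.0467). Without surrogate variables the WT value of *Zfp382* was 0.56 (unadjusted p = 0.019, edgeR adjusted p = 0.7135). *5730419F03Rik*, a transcript without an assigned function here, had normalised read counts of 112.5 and 943 in WT_SD replicates 1 and 7 and was at 0 in the other 9 WT libraries. Its edgeR adjusted p was 0.0607 with surrogate variables and 0.7135 without them. With DESeq2 and the same surrogate variables its adjusted p was 0.012, the 1 call of that fit. No fold change is given, because its value depends on the added prior count. The hippocampal libraries had the same form, with up to 629 normalised reads in WT_SD and up to 463 in WT_HFD and medians of 0.531 and 0.

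**Figure D3:**
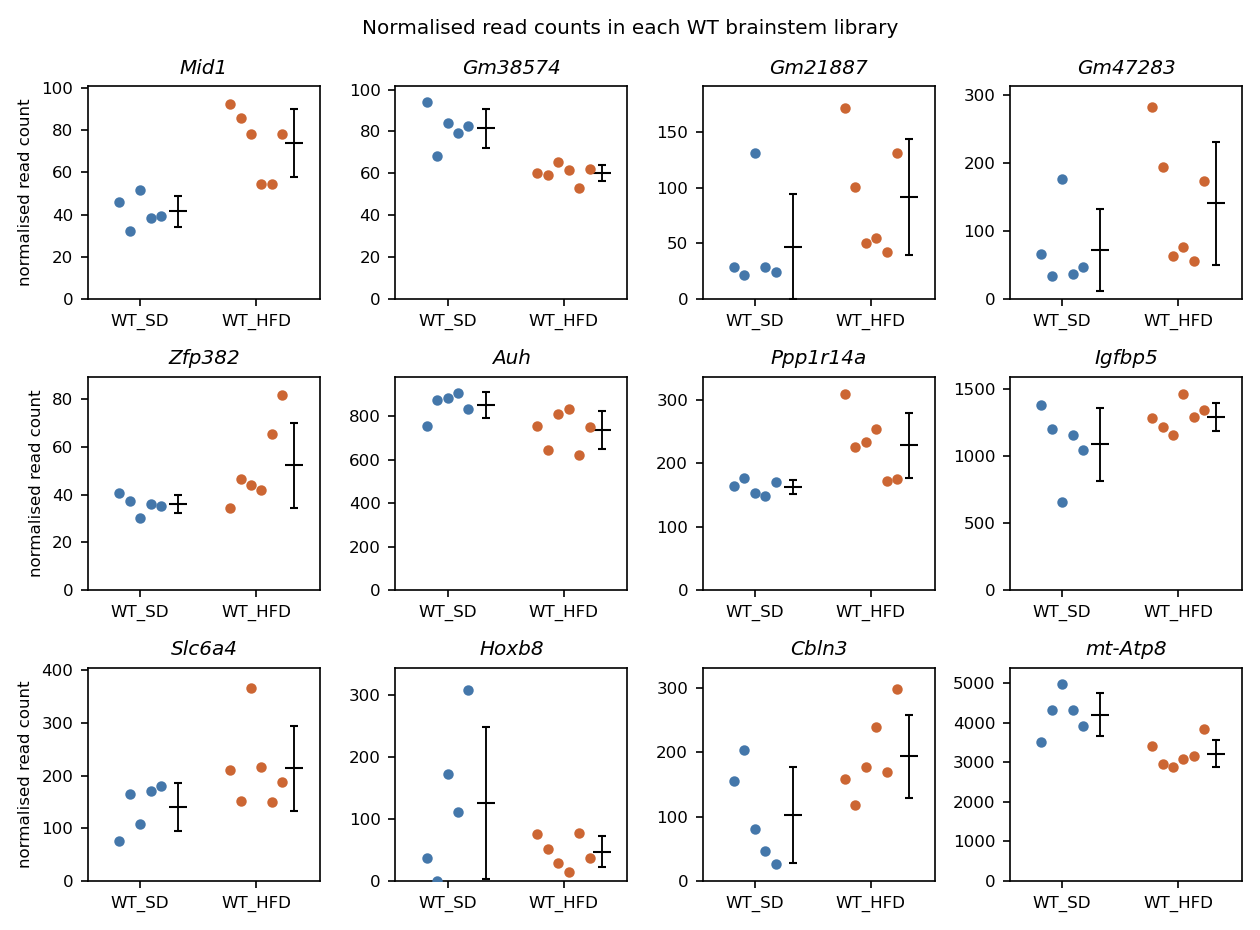
Normalised read counts of 12 genes in each of the 5 WT_SD (blue) and 6 WT_HFD (orange) brainstem libraries, with the mean and SD beside the points. *Mid1* and *Gm38574* are the genes whose groups do not overlap, and *Hoxb8* spreads more widely in WT_SD than in WT_HFD.

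A fixed rule singled out 16 transcripts, the 8 with the largest log2 fold changes in each direction among genes at the nominal level whose libraries did not overlap. Since that rule used this contrast, their values are a description. Besides *Mid1*, the higher group held *Arrdc1*, an alpha-arrestin of vesicle budding and ubiquitination, with 72.9, 64.0, 48.2, 59.8 and 48.3 in WT_SD and 74.5, 80.3 and 87.9 in WT_HFD (log2 fold change 0.42 ± 0.14). *Rasgef1c*, a guanine nucleotide exchange factor of the Ras family, had 40.1 to 57.8 in WT_SD and 61.1 to 84.9 in WT_HFD (0.38 ± 0.17). *Sumf2*, a paralogue of the sulfatase-modifying enzyme, had 82.0 to 98.9 and 102 to 122 (0.24 ± 0.10), and *Atxn7l2*, an ataxin 7 relative, 49.6 to 74.2 and 77.8 to 116 (0.27 ± 0.13). *BC030500*, *Gm49797* and *Gm13205*, for which no role is given here, had log2 fold changes of 0.38, 0.35 and 0.32.

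The lower group was led by *Gm38574*, a processed pseudogene, with 93.9, 68.2, 83.8, 79.4 and 82.5 in WT_SD and 53.2, 60.9 and 65.2 in WT_HFD (log2 fold change -0.51 ± 0.12). Reads of a pseudogene may belong to its parent gene, so this count is uncertain. *1700030K09Rik* stood at -0.32 ± 0.14, and the remaining 6 were abundant transcripts with differences of 0.20 or less in size. *Lrrc58*, a leucine-rich repeat protein, had 1186, 1226, 1261, 1252 and 1231 in WT_SD against 1007, 1071 and 1137 in WT_HFD (-0.12 ± 0.04), and *Rnf128*, a membrane ubiquitin ligase, 380 to 397 against 311 to 372 (-0.13 ± 0.05). *Tbl1xr1*, a corepressor exchange factor of nuclear receptors, was at -0.13 (-0.05 without WT_SD replicate 1), *Tmem167b* at -0.14, *Oscp1* at -0.18 and *Efcab2* at -0.20. The rule did not use hippocampal libraries, but the study took both regions from its animals, and 8 of the 11 WT brainstem libraries carry a replicate number that a hippocampal library of the same group also has, so the same mice may stand behind both. Of the 13 that were measured there, 5 had the same sign of the diet difference as in brainstem (38.5%, beside 52.1% of all genes tested in both regions), and *Mid1* was the 1 that did so at the nominal level.

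For nuclear genes of oxidative phosphorylation the sign of the list medians depended on the model, so both are given. With 4 surrogate variables, 12 of 37 complex I genes had a log2 fold change above 0 and the list median was -0.02, whereas without surrogate variables 30 of 37 were above 0 and the median was 0.10. Over all tested genes 46.1% were above 0 with surrogate variables and 47.3% without. At an unadjusted p of at most 0.05 complex I had 1 gene higher and 1 lower in the former fit and 4 higher in the latter. The median of complex III went from -0.01 to 0.05, of complex IV from -0.06 to 0.07 and of complex V from -0.04 to 0.04, while the mitochondrial and cytosolic ribosomal protein lists went from -0.01 and -0.04 to 0.05 and 0.05. The 85 cytosolic ribosomal protein genes had 8 lower and 0 higher with surrogate variables and 3 higher without them. Over all tested genes 3.3% were lower with surrogate variables and 3.31% higher without them, and the 3 higher genes are near that share.

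*Uqcrq*, a subunit of complex III, showed the difference between models in 1 gene. Its normalised read counts were 512, 475, 405, 357 and 471 in WT_SD and 362, 639 and 871 as lowest, median and highest in WT_HFD, which gave a log2 fold change of 0.49 (unadjusted p = 0.0183) without surrogate variables and 0.01 ± 0.08 with them. *Ndufa2* of complex I went from 0.23 to -0.01 and *Cox6a1* of complex IV from 0.23 to 0.00028. In contrast *Cox6b1*, a complex IV subunit, was at -0.11 ± 0.03 with surrogate variables (unadjusted p = 0.00221) and at -0.01 without them, *Cox4i1* at -0.10 and 0.07 and *Cox6c* at -0.09 and -0.01. *Atp5k*, a subunit of ATP synthase, was at -0.16 and -0.09, and *Ndufb5* of complex I at 0.09 and 0.10. Their edgeR adjusted p was 0.896 in the fit with surrogate variables for each of *Cox6b1*, *Cox4i1*, *Cox6c*, *Atp5k* and *Ndufb5*.

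The GC content of the genes was examined beside these lists. The slope of a library's deviation on GC content, in log2 units per 10 percentage points, was 0.118, 0.062, -0.163, -0.030 and 0.050 in WT_SD and -0.00099, 0.132 and 0.182 as lowest, median and highest in WT_HFD. The mean difference of 0.107 did not pass an exact permutation test (two-sided, p = 0.0671; the smallest p these 462 divisions allow is 0.00433). The first surrogate variable averaged -0.0094 in WT_SD and -0.17 in WT_HFD, and the third averaged 0.046 and -0.12. With 1, 2 and 3 surrogate variables the log2 fold change of *Uqcrq* was 0.38, 0.23 and 0.04. Over the 11 libraries the Pearson correlation of a list's mean level with the GC slope ran from 0.08 for cytosolic ribosomal proteins through 0.18 for complex V, 0.21 for complex IV, 0.23 for mitochondrial ribosomal proteins and 0.36 for complex I to 0.44 for complex III. The Spearman correlations ran from 0.35 to 0.64. With the first surrogate variable, itself estimated from these counts, the Pearson correlations ran from -0.30 for cytosolic ribosomal proteins to -0.62 for complex III. The Spearman correlations with it ran from -0.48 to -0.73. All are given as a description because all points share the same gene sets. With the GC correction in place of surrogate variables the complex I median was 0.08 and *Uqcrq* stood at 0.49, but *Cox6a1* at -0.00093. The part of GC content in the difference between models was not tested beyond these values.

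**Figure D4:**
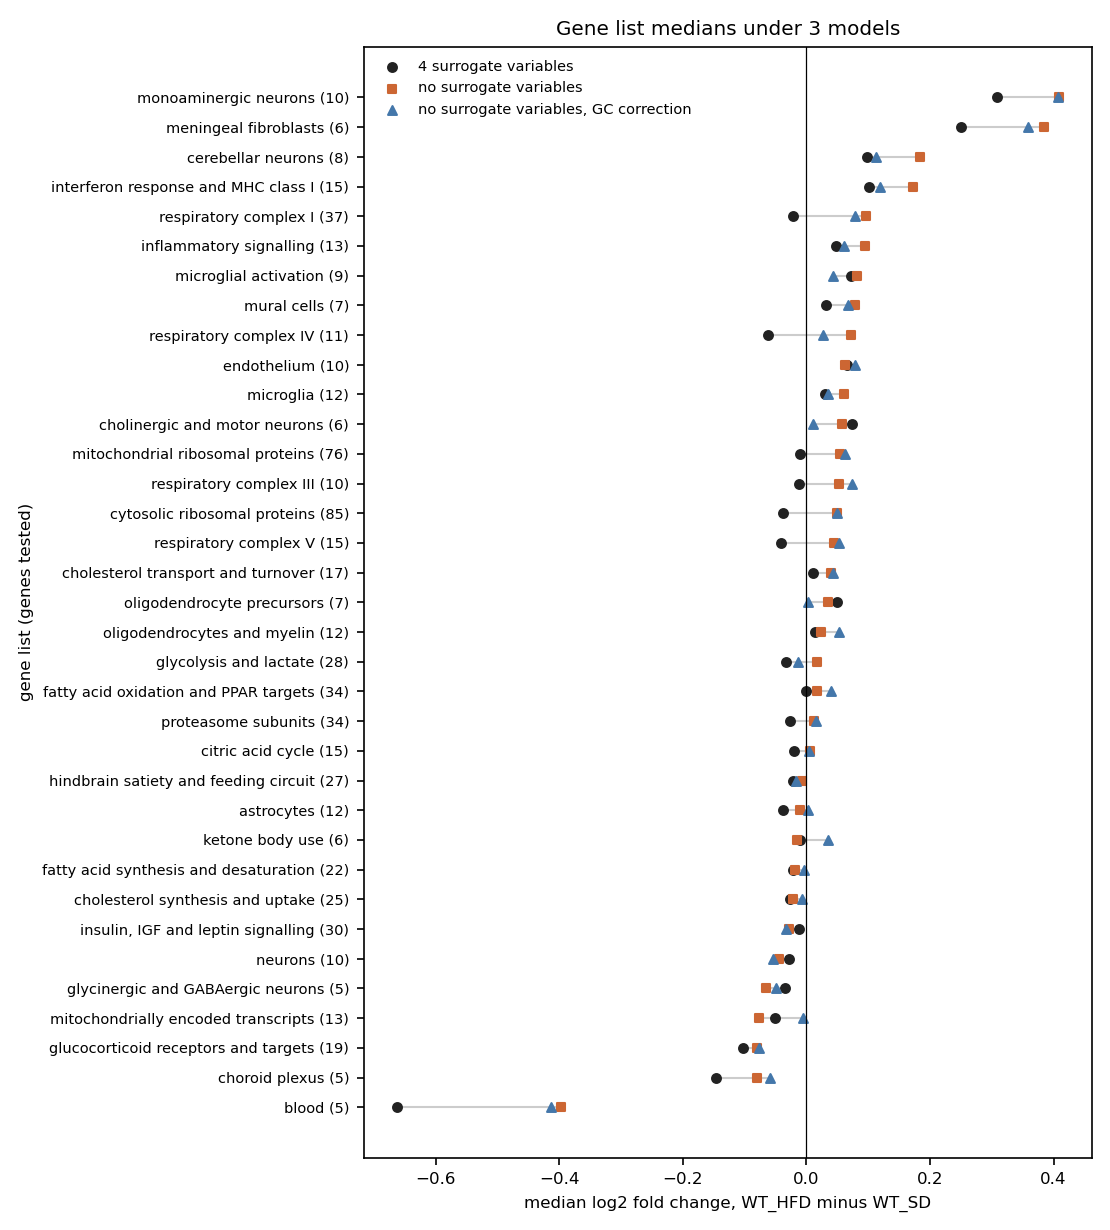
Median log2 fold change (WT_HFD minus WT_SD) of the cell type, metabolism, hormone and immune gene lists with at least 5 tested genes, under the model with 4 surrogate variables (black circles), without surrogate variables (orange squares) and with GC correction (blue triangles). Lists of stress, synapse, tissue position and the study's genes are not drawn, among them the Hox list with medians of -0.35, -0.54 and -0.55. Monoaminergic and meningeal lists lie to the right and blood to the left under all 3 models, and the nuclear respiratory chain and ribosomal lists lie on either side of 0.

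Transcripts encoded by the mitochondrial genome lay below 0 for 13 of 13 genes with and without surrogate variables, with medians of -0.05 and -0.08, beside 46.1% of all genes above 0. With the GC correction the median was -0.0056 and 6 of the 13 were above 0, *mt-Co1* among them at 0.02. The genes are transcribed as long shared precursors, so they are no independent observations. *mt-Atp8*, whose reading frame overlaps that of its neighbour so that its reads are uncertain, had normalised read counts of 3506, 4314, 4971, 4314 and 3920 in WT_SD and 2882, 3127 and 3830 in WT_HFD (log2 fold change -0.20 ± 0.08, unadjusted p = 0.0199). *mt-Nd6*, the light-strand gene, had 19270 to 22766 in WT_SD and 16093 to 20596 in WT_HFD (-0.15 ± 0.05, unadjusted p = 0.00774, and -0.09 without WT_HFD replicate 8). *mt-Co1*, the most abundant, differed by -0.05 with a 95% interval from -0.13 to 0.02. In TG brainstem the median of the 13 was 0.03. Of 28 genes of glycolysis and lactate handling 0 were higher and 3 lower, beside 2.13% and 3.3% of all tested genes. The lower ones were led by *Pfkm*, the muscle-type phosphofructokinase of neurons, at -0.10 ± 0.03 (unadjusted p = 0.00383). Without surrogate variables *Pfkm* stood at -0.05 (unadjusted p = 0.428), and 1 gene of the list was higher and 0 lower.

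Among the lists of cell type markers, monoaminergic neurons had the highest median log2 fold change with and without surrogate variables. All 10 tested members had a log2 fold change above 0, with a median of 0.31 (9 of 10 above 0 and a median of 0.41 without surrogate variables), and 4 of them were higher at the nominal level, a share of members to be read beside the 2.13% of all genes. *Slc6a4*, the serotonin transporter, had normalised read counts of 76.6, 165, 108, 171 and 180 in WT_SD and 151, 199 and 366 as lowest, median and highest in WT_HFD (log2 fold change 0.55 ± 0.24, unadjusted p = 0.0321). *Tph2*, the serotonin-synthesising hydroxylase, had 190, 392, 255, 360 and 363 in WT_SD and 302, 398 and 688 in WT_HFD (0.36 ± 0.23, unadjusted p = 0.14). WT_HFD replicate 3 held the highest value of both and WT_SD replicate 1 the lowest, and the groups overlapped for each. *Gch1*, which makes the cofactor of monoamine hydroxylases, was at 0.46 ± 0.19, *Slc18a2*, the vesicular monoamine transporter, at 0.31 ± 0.15, and *Slc6a2*, the noradrenaline transporter, at 0.66 ± 0.32. With 1 library left out *Slc6a2* ranged from 0.37 (without WT_HFD replicate 2) to 0.95 (without WT_SD replicate 1), and *Slc6a4* from 0.33 (without WT_SD replicate 1) to 0.71 (without WT_SD replicate 8). *Tph2* ranged from 0.14 and *Gch1* from 0.29, both without WT_SD replicate 6, to 0.49 and 0.52. Without surrogate variables *Slc6a2* and *Gch1* no longer reached the nominal level (unadjusted p = 0.155 and 0.0589). With DESeq2 and the same surrogate variables *Gch1* reached it (unadjusted p = 0.025). In that fit *Slc6a4*, *Slc18a2* and *Slc6a2* did not (unadjusted p = 0.065, 0.11 and 0.16). In bulk tissue more cells of a type and more RNA per cell cannot be told apart.

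Markers of position along the neuraxis differed between libraries too. *Hoxb8*, a gene of the caudal hindbrain and spinal cord, had normalised read counts of 37.1, 0, 172, 112 and 308 in WT_SD and 14.7, 44.3 and 76.8 in WT_HFD (log2 fold change -1.19 ± 0.58, unadjusted p = 0.0497). WT_SD replicates 6, 7 and 8 exceeded every WT_HFD library, and WT_SD replicate 4 held no read. With 1 library left out the *Hoxb8* value ranged from -1.59 (without WT_SD replicate 6) to -0.58 (without WT_SD replicate 8). *Hoxa5* had 261, 76.4, 396, 407 and 513 in WT_SD and 192 to 288 in WT_HFD, with -0.27 ± 0.22 (-0.10 without WT_SD replicate 8). All 5 tested Hox genes of paralogue groups 5 to 9, a list formed after the values were seen, were below 0, with a median of -0.35 (-0.54 without surrogate variables). *Slc6a5* was lower as well, with 5398, 4955, 4274, 5714 and 5186 in WT_SD and 3143, 4480 and 5389 in WT_HFD (-0.11 ± 0.05, unadjusted p = 0.0321), and stood at -0.05 without WT_SD replicate 6. The cerebellar granule cell gene *Cbln3* had 156, 203, 80.3, 47 and 26.3 in WT_SD and 118, 173 and 298 in WT_HFD (0.89 ± 0.42, unadjusted p = 0.0423), and *Gabra6*, a GABA receptor subunit of the same cells, had 70.5, 71.3, 35.7, 10.2 and 7.02 in WT_SD and 41.4 to 113 in WT_HFD. With 1 library left out *Cbln3* ranged from 0.43 (without WT_HFD replicate 8) to 1.37 (without WT_SD replicate 4), and *Gabra6* from 0.25 to 1.30 without the same libraries. WT_SD replicates 6, 7 and 8 thus held the high *Hoxb8* and the low *Cbln3* counts. Over the cerebellar list 6 of 8 genes were above 0 with a median of 0.10 (0.18 without surrogate variables). The mean log2 CPM of its genes ran from 3.72 to 4.83 in WT_SD and from 4.50 to 5.06 in WT_HFD, and the difference of the group means in this measure (0.44) was larger than that of the monoaminergic list (0.37). The part of tissue position in the monoaminergic and other differences was not tested.

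**Figure D5:**
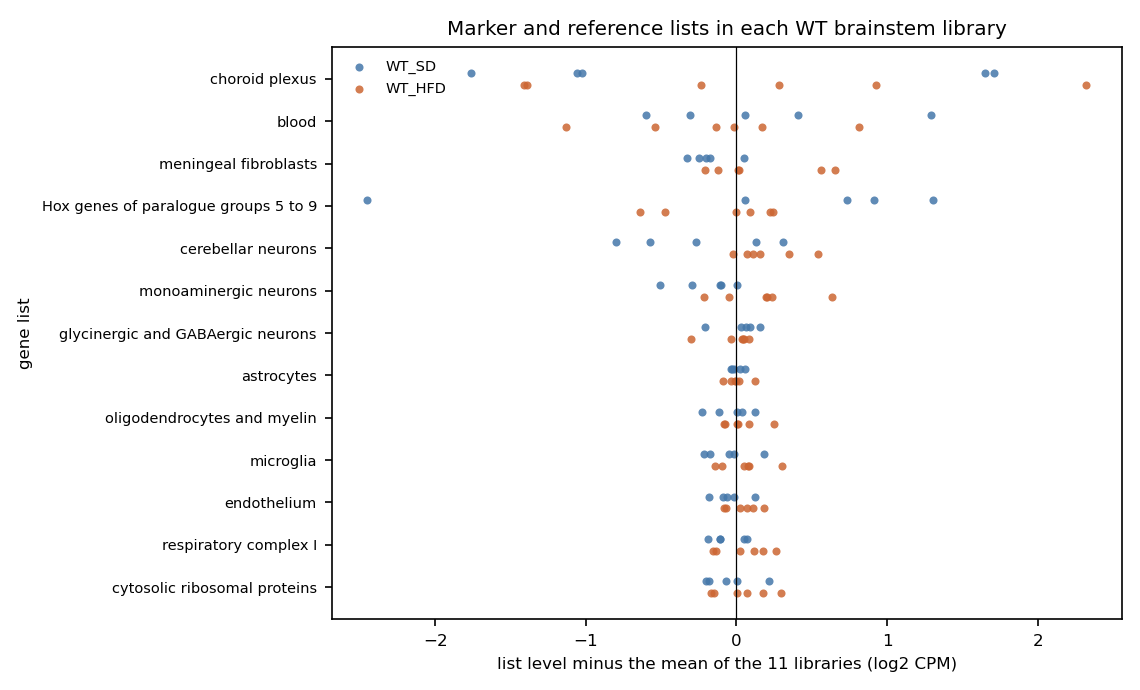
Mean log2 CPM of 13 gene lists in each WT brainstem library, as the deviation from the mean of the 11 libraries (blue, WT_SD; orange, WT_HFD). Choroid plexus and blood lists spread over more than 1 log2 unit within either diet group and the Hox list within WT_SD, while astrocyte, oligodendrocyte, microglia and endothelium lists stay within 0.4 of their mean.

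Tissue borders added further spread. All 6 tested genes of meningeal fibroblasts had a log2 fold change above 0 (median 0.25, and 0.38 without surrogate variables), with 0 at the nominal level with surrogate variables and 2 without them. *Myoc*, a secreted protein of meninges and glia limitans, had 84.0, 88.8, 61.5, 88.0 and 82.5 in WT_SD and 83.3, 103 and 209 in WT_HFD (0.32 ± 0.17, and 0.17 without WT_SD replicate 6), and *Aldh1a2*, a retinoic acid-synthesising enzyme of meninges, was at 0.51 ± 0.28. The mean log2 CPM of the meningeal genes ran from 3.0 to 3.37 in WT_SD and from 3.12 to 3.98 in WT_HFD. Haemoglobin and erythroid transcripts were below 0 in 5 of 5 cases with a median of -0.66 (-0.40 without surrogate variables and -0.41 with the GC correction). *Hbb-bs* spanned 3523 to 16499 in WT_SD and 2745 to 9637 in WT_HFD (unadjusted p = 0.0966), and its log2 fold change of -0.66 went to -0.02 without WT_SD replicate 6.

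Of 12 astrocyte genes 0, of 12 microglia genes 0 and of 10 endothelial genes 0 were at the nominal level, with medians of -0.04, 0.03 and 0.07. In the list of oligodendrocytes and myelin 2 of 12 genes were higher, *Ugt8a*, which makes the myelin lipid galactosylceramide, at 0.18 ± 0.06 (unadjusted p = 0.00277, and 0.10 without WT_SD replicate 6) and *Ppp1r14a*, an inhibitor subunit of myosin phosphatase. Without surrogate variables *Ugt8a* stood at 0.12 (unadjusted p = 0.0873). *H2-Aa*, an MHC class II chain of microglia and macrophages, had 49.4, 43.4, 38.4, 41.0 and 36.0 in WT_SD and 40.8, 59.0 and 79.5 in WT_HFD (0.46 ± 0.18, unadjusted p = 0.0195, edgeR adjusted p = 0.896), and *C3*, the central complement component, was at 0.35 ± 0.16. Each had the largest log2 fold change of its list. *H2-Aa* was the 1 gene at the nominal level among 9 of microglial activation, whose median was 0.07. *C3* was the 1 gene among 13 of inflammatory signalling, of which 8 were above 0 with a median of 0.05. For interferon response and MHC class I 14 of 15 genes were above 0 (46.1% of all genes) with a median of 0.10, and 0 were at the nominal level. Without surrogate variables 13 of 15 were above 0 (47.3% of all genes) with a median of 0.17, and 1 was higher at that level (3.31% of all genes). In that list *Oasl2*, an interferon-induced gene, was at 0.37 ± 0.20 and ranged from 0.11 (without WT_HFD replicate 8) to 0.61 (without WT_SD replicate 1). *H2-D1*, a classical MHC class I heavy chain, was not overlapping between diets, with 929 to 1127 in WT_SD and 1138 to 1331 in WT_HFD, although the modelled log2 fold change was 0.10 ± 0.09. Paralogous MHC genes can share reads, so its count is uncertain. Of 14 immediate early genes 1 was higher, the AP-1 member *Fosl2* (0.36 ± 0.13, unadjusted p = 0.0117), which stood at 0.24 without surrogate variables (unadjusted p = 0.0972).

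Genes that the study singled out are given as values, since they were chosen on these samples. *Auh*, an RNA-binding enoyl-CoA hydratase of leucine breakdown, had normalised read counts of 754, 874, 881, 908 and 833 in WT_SD and 621, 753 and 832 in WT_HFD (log2 fold change -0.25 ± 0.06, unadjusted p = 0.000421, edgeR adjusted p = 0.701). WT_SD replicate 1 lay below WT_HFD replicates 1, 3 and 4, so the groups overlapped. *Ppp1r14a* had 163, 177, 153, 149 and 169 in WT_SD and 172, 229 and 309 in WT_HFD, with 0.25 ± 0.08 with surrogate variables and 0.49 without them. *Grip2*, a scaffold of AMPA receptors, was at 0.27 ± 0.13 here (from 0.17 without WT_SD replicate 1 to 0.42 without WT_SD replicate 8) and at 0.745 in WT hippocampus. *Mif*, a cytokine that is also abundant in neurons, had 744, 763, 572, 568 and 786 in WT_SD and 689 to 1145 in WT_HFD, with 0.07 ± 0.05 against 0.48. *Stub1*, a chaperone-linked ubiquitin ligase, was at -0.05 ± 0.10 against 0.28, and *Uchl1*, a neuronal deubiquitinase, at -0.003 ± 0.03 against 0.18.

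The WT diet difference was set against that in TG brainstem and in WT hippocampus. For the WT effect minus the TG effect, which share the model but no library, 644 of 13340 genes (4.83%) were at the nominal level and 1 was called. The TG diet difference itself had 922 genes (6.91%) at that level and 1 called (0.0075%). In WT hippocampus 850 of 13272 genes (6.4%) were at that level and 0 were called, and for the brainstem minus the hippocampus effect 602 of 12619 (4.77%) with 0 called. This last test took the libraries of both regions as independent, although some may share an animal. Across these 12619 genes, which are no independent replicates, the log2 fold changes of the regions correlated with a Spearman rho of 0.07 in the fits with surrogate variables, 0.40 without them and 0.19 with the GC correction. Of the 668 genes at the nominal level in brainstem that were also measured in hippocampus, 54.6% had the same sign there, beside 52.1% of all genes.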

How the data were processed

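Poly(A)-selected libraries were made from 500 ng of RNA and sequenced as single-end 75-base reads; the submitters' processing notes name FastQC 0.11.9, STAR 2.7.9a and DESeq2 1.32.0, and the alignment used Ensembl release 104 with the human transgene added. The authors deposited raw counts per gene, used here as they stand; how reads were assigned to genes and strands is not given in the sources used here. Gene symbols, GC content and lengths came from GENCODE vM21 (13319 of 13340 tested genes matched), and no coordinates were used.

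Counts of all 23 brainstem libraries were fitted in edgeR 4.0.16 (R 4.3.3) with TMM normalisation, 4 groups and 4 surrogate variables from svaseq (sva 3.50.0). The contrast WT_HFD minus WT_SD was tested by quasi-likelihood with Benjamini-Hochberg adjustment over all genes. Log2 CPM used a prior count of 2. The pipeline was tested on simulated counts, and no libraries of a group had counts within sampling noise of each other. Single values per library were compared by exact permutation, two-sided.

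The comparison, members and gene lists were chosen with earlier results of these data known. Named genes were the 8 largest differences in each direction without overlap, the 2 most abundant and 2 lowest-p members of each list as far as room allowed, and the genes named by the study; all others were named after their values were seen. Some genes that the rule would name are not reported here. Alternatives were DESeq2 1.42.0, other numbers of surrogate variables, RLE scaling, other count filters, GC or length correction, WT libraries alone, a replicate block and each library left out.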

Additional observations from a re-analysis of the deposited data

Results flagged for a closer look

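In 256 groups of library values checked for an outlying library, 17 had one by Dixon's test. Chance alone gives such a value in 5% of groups, a share not far below that found. The values below are therefore a description. WT_SD replicate 6 stood apart for *Gm21887* (131, median of the others 26.5), *Gm47283* (177, others 42.1) and *Myoc* (61.5, others 86.0), and in mean log2 CPM of the neuron list (8.72, others 9.0), the cholinergic and motor neuron list (4.27, others 4.78) and the fatty acid synthesis and desaturation list (6.58, others 6.70). WT_HFD replicate 3 was highest for *Slc6a4* (366, others 187) and *Slc18a2* (813, others 546), and WT_HFD replicate 7 for *Lss* (554, others 440) and *Ttr* (34714, others 2989). WT_HFD replicate 1 stood apart for *Atxn7l2* (116, others 87.9) and for the glycinergic and GABAergic neuron list (7.52, others 7.86), and WT_HFD replicate 4 for *H2-D1* (1331, others 1165). In WT_SD, replicate 7 was apart for *5730419F03Rik* (943, others 0) and *Ndufa2* (462, others 593), replicate 1 for *Tbl1xr1* (690, others 580) and replicate 8 for *Adipor1* (960, others 987). The diet effect on *Zfp382* differed between WT and TG brainstem by 1.36 on the log2 scale, with an edgeR adjusted p of 0.0467 for that difference.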

How the results depend on the processing

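The count of 0 called genes held under the other alternatives run, except that DESeq2 with the same surrogate variables called 1 (*5730419F03Rik*), and with 1 library left out the count ranged from 0 to 2. It was 2 without WT_SD replicate 6 (*5730419F03Rik* and *Gm21887*), 2 without WT_HFD replicate 7 (*Gm21887* and *Gm47283*) and 1 without WT_SD replicate 8 (*5730419F03Rik*), and 0 in each such fit without surrogate variables. Genes at the nominal level numbered 478 with DESeq2 and the same surrogate variables and 1123 with 2 surrogate variables, and with 1 library left out 656 to 900, or 505 to 1607 without surrogate variables, the highest without WT_HFD replicate 8. Among genes at that level 39.2% were higher in WT_HFD with surrogate variables and 50.2% without. The difference of the WT and TG effects had 1037 such genes without surrogate variables, 1609 with 1, 1595 with 2 and 1233 with GC correction (625 to 736 with 1 library left out, 652 to 1897 without surrogate variables), and the difference between regions 270 without surrogate variables (200 to 620 with 1 library left out). Non-overlapping genes numbered 90 under the total count filter, where more genes were tested, and 67 to 318 with 1 library left out, where fewer libraries had to separate. For the replicate numbers shared by the diets the correlations of deviations were -0.31, 0.16, 0.40 and 0.07. These values are too few to decide whether such libraries are paired. The study assigned diets at random within litters, which the labels used here do not name. With the replicate block 0 genes were called, and 517 were at the nominal level with surrogate variables and 839 without.

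Of the 53 named genes at the nominal level with surrogate variables, 33 were also there without them, and 15 moved by over 1.5 times when 1 library was left out. Of 50 list medians 12 had the other sign without surrogate variables and 25 more moved by over 1.5 times. Those that moved by more than the pooled SD of the list's level between libraries were ependyma (0.227 without surrogate variables), glycolysis (0.018), inflammatory signalling (0.094), genes named by the study (0.232) and the pseudoautosomal trio (0.532 with GC correction). The following log2 fold changes had the other sign than with 4 surrogate variables, and the cause was not tested. Without surrogate variables they were 0.072 for *Cox4i1*, 0.23 for *Ndufa2*, 0.048 for *Ramp1*, 0.28 for *Stub1* and 0.18 for *Uchl1*. With DESeq2 and no surrogate variables they were 0.075 for *Cox4i1*, 0.24 for *Ndufa2*, 0.051 for *Ramp1*, 0.28 for *Stub1*, 0.18 for *Uchl1* and 0.0014 for *Ucp2*. With the WT libraries alone they were 0.077 for *Cox4i1*, 0.24 for *Ndufa2*, 0.053 for *Ramp1*, 0.29 for *Stub1*, 0.18 for *Uchl1* and 0.0027 for *Ucp2*. With GC correction they were -0.00093 for *Cox6a1*, 0.027 for *Cox6c*, 0.21 for *Ndufa2*, 0.016 for *Ramp1*, 0.10 for *Stub1*, 0.079 for *Uchl1* and 0.017 for *mt-Co1*. With length correction they were 0.016 for *Cox4i1*, 0.18 for *Ndufa2*, 0.0063 for *Ramp1*, 0.22 for *Stub1* and 0.11 for *Uchl1*. With 1 surrogate variable they were 0.071 for *Cox4i1*, 0.024 for *Cox6b1*, 0.013 for *Cox6c*, 0.17 for *Ndufa2*, 0.00075 for *Oxct1*, 0.053 for *Ramp1*, 0.14 for *Stub1* and 0.12 for *Uchl1*. With 2 surrogate variables they were 0.092 for *Ndufa2*, 0.041 for *Stub1* and 0.064 for *Uchl1*. With the replicate block and no surrogate variables they were 0.097 for *Cox4i1*, 0.0031 for *Cox6b1*, 0.012 for *Cox6c*, 0.26 for *Ndufa2*, 0.073 for *Ramp1*, 0.38 for *Stub1*, 0.21 for *Uchl1* and 0.0072 for *Ucp2*. With the replicate block and surrogate variables they were -0.017 for *Cox6a1*, -0.15 for *Ttr* and -0.015 for *Uqcrq*. With DESeq2 and the same surrogate variables it was -0.048 for *Ttr*. With the filterByExpr filter it was -0.0014 for *Cox6a1*. With the total count filter they were 0.0069 for *Hmgcs1*, 0.00066 for *Uchl1* and -0.0022 for *Uqcrq*. With 1 library left out, over the fits with and without surrogate variables, values ranged from -0.13 to 0.14 for *Cox4i1*, from -0.012 to 0.30 for *Cox6a1*, from -0.12 to 0.064 for *Cox6b1*, from -0.12 to 0.058 for *Cox6c*, from -0.99 to 0.096 for *Hbb-bs*, from -0.037 to 0.30 for *Ndufa2*, from -0.058 to 0.014 for *Oxct1*, from -0.16 to 0.14 for *Ramp1*, from -0.12 to 0.35 for *Stub1*, from -0.59 to 1.09 for *Ttr*, from -0.017 to 0.22 for *Uchl1*, from -0.21 to 0.056 for *Ucp2* and from -0.0096 to 0.61 for *Uqcrq*.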

Other observations

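ENSMUSG00000119584, an abundant transcript for which the name tables used here hold no symbol, had a normalised read count of 208923 in WT_SD replicate 1 and between 12545 and 21541 in the other 10 WT libraries. Its log2 fold change of -1.73 (unadjusted p = 0.004, edgeR adjusted p = 0.896) goes with that 1 library. It was picked after its values were seen.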
